A study of Homo sapiens with 9 samples.

Results

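MCL1, BAX, BIRC5 and IER3 are 4 genes whose products set whether a stressed or dividing cell lives or dies, and they are 4 of the 14884 genes with a symbol that were measured here. Each gene was found by its symbol in the platform annotation, and among several features of a gene the brightest one over the 9 arrays was used. The genes were chosen by their differences between these same groups of arrays in an earlier look at the data. Those differences are therefore given as a description, with no p-value printed. Where a p threshold is applied to the 4 genes, that choice shaped the outcome and nothing is read from it. The annotation placed 14 of the 53617 features of the array on the 4 genes, 1 each for MCL1, BAX and BIRC5 and 11 for IER3.

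The samples were BT-549 cells, a human breast cancer line of the triple-negative kind, which lacks the hormone receptors and the HER2 amplification that other breast tumours carry. Cells of the first group received a mimic of mature miR-150-5p at 50 nM, those of the second group a non-specific small RNA (the negative control) at 50 nM, and those of the third group the lipid reagent alone (mock), with 3 arrays per group. All cells were exposed to the same lipid reagent, and RNA was collected at 72 h. Each value is a log2 signal from a whole-transcript array, so a difference of 1 is a doubling, and signals of different genes cannot be compared with each other because their probes differ. Everything comes from 1 line, and the labels leave it unsaid whether samples of 1 group came from separate cultures, so errors and p-values cover the spread among these 9 samples and perhaps technical spread alone. VIM, FN1 and AXL, marks of a mesenchymal cell, read 7.85 to 9.48 on all 9 arrays. The hormone receptor genes ESR1 and PGR, the epithelial gene EPCAM and the endothelial gene PECAM1 read 1.64 to 2.80, among the dimmer genes. ERBB2, CDH1, CDH2 and PTPRC were not analysed here. Total RNA of a culture cannot tell a change per cell from a change in which cells survived.

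As background, cells commit to death mostly at the mitochondrion. Proteins of the BCL-2 family settle the matter there: survival members such as MCL1 hold back the pore formers BAX and BAK1, and BH3-only members undo that hold. Released mitochondrial proteins then switch on caspases, which inhibitor of apoptosis proteins can restrain. BIRC5 (survivin) is classed with those inhibitors, but it also serves in mitosis as part of the chromosomal passenger complex, and its gene is transcribed mainly in dividing cells. IER3 (IEX-1) is an immediate-early gene induced by growth factors, stress and NF-kB that can protect from death or promote it. MCL1 protein and mRNA are both short-lived.

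The mature sequence of miR-150-5p and the promoters of MCL1, BIRC5 and IER3 are not shown. For BAX, the RefSeq promoter table holds the bases before the annotated start of the gene on GRCh38.p14. They are shown because, of MCL1, BAX, BIRC5 and IER3, BAX alone had a promoter sequence available here. This stretch also has an uncommon feature, and whether that feature bears on the differences of BAX between groups was not tested. The 250 bases upstream are chr19:48954625-48954874 on the plus strand, with each CACGTG in capitals:

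BAX promoter: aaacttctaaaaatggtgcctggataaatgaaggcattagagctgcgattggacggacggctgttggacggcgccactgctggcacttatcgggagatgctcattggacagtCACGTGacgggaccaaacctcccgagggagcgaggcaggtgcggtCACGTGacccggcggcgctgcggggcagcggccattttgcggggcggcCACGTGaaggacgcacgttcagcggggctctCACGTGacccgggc

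CACGTG is an E-box, the core letters bound by basic helix-loop-helix factors such as MYC with MAX, and it reads the same on both strands. BAX held 4 of them, whose first bases lie 138, 93, 45 and 14 bases before the start, and none overlaps another. Of 35116 promoter windows of the same length, 2228 (6.34%) held at least 1 CACGTG and 5 (0.0142%) held at least 4, BAX included. The motif was chosen after the BAX sequence had been read, and a match to letters does not show that a factor is bound there.

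MCL1, the survival member, was highest in the mimic arrays and lowest in the negative control arrays. Its log2 signal was 7.73, 7.84 and 7.79 on the 3 mimic arrays, 7.02, 6.88 and 7.04 on the negative control arrays, and 7.46, 7.32 and 7.58 on the mock arrays. No 2 groups overlapped. The means were 7.78 ± 0.055 in the mimic, 6.98 ± 0.083 in the negative control and 7.45 ± 0.13 in mock (SD, n = 3 each). The mimic was higher than the negative control by 0.81 ± 0.090 (log2, SE of the limma fit), a 1.75-fold difference. This was the 167th largest of all 14884 differences in that comparison, counting either direction. Against mock, the mimic was higher by 0.33 ± 0.090, which is 1.26-fold, while the negative control against mock was at -0.47 ± 0.090. So in these means the negative control lay below mock by more than the mimic lay above it, and these comparisons share their arrays. Whether these distances differ was not tested. One feature reads the gene as a whole, so the long form of MCL1, which protects cells, was not told apart from its short splice form, which promotes death.

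BAX, the pore former that MCL1 and its relatives oppose, was lower in the negative control and near level in the other groups. It read 4.52, 4.41 and 4.54 in the mimic, 3.98, 3.99 and 4.24 in the negative control, and 4.39, 4.45 and 4.44 in mock. The mimic and mock arrays overlapped, and all 6 of them lay above every negative control array, the nearest by 0.15. Means were 4.49 ± 0.073 in the mimic, 4.07 ± 0.15 in the negative control and 4.42 ± 0.032 in mock (SD, n = 3 each). The mimic minus the negative control came to 0.42 ± 0.090, which is 1.34-fold, and the negative control minus mock to -0.36 ± 0.090. Between mimic and mock the difference was 0.07 ± 0.090, smaller than its error. Negative control 3 was the array nearest to the others, and without it the mimic minus the negative control was 0.51.

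BIRC5 had another order, lowest in mock and higher in both groups that had received a small RNA. Its signal was 5.92, 5.42 and 5.90 in the mimic, 5.37, 5.92 and 5.38 in the negative control, and 4.75, 5.13 and 4.99 in mock. Mimic and negative control arrays overlapped across their whole range, with mimic 2 down among the lower negative control arrays and negative control 2 up among the higher mimic arrays. All 6 lay above the 3 mock arrays, the nearest by 0.25. The group means were 5.75 ± 0.28 in the mimic, 5.55 ± 0.31 in the negative control and 4.96 ± 0.19 in mock (SD, n = 3 each), the widest spread within groups of the 4 genes. Against mock, the mimic was higher by 0.79 ± 0.18 (1.73-fold) and the negative control by 0.60 ± 0.18 (1.52-fold). The mimic minus the negative control was 0.19 ± 0.18, about the size of its error.

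IER3, the stress-response gene, stood out in the negative control alone. It read 6.04, 6.22 and 6.09 in the mimic, 6.54, 7.003 and 6.92 in the negative control, and 6.05, 6.28 and 6.25 in mock. Every negative control array lay above all 6 others, by at least 0.26, and the mimic and mock arrays overlapped. IER3 averaged 6.12 ± 0.094 in the mimic, 6.82 ± 0.25 in the negative control and 6.19 ± 0.12 in mock (SD, n = 3 each). The mimic minus the negative control was -0.70 ± 0.13, or 1.63-fold lower in the mimic, and the mimic minus mock was -0.07 ± 0.13. The negative control exceeded mock by 0.63 ± 0.13, a 1.55-fold difference.

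**Figure D1:**
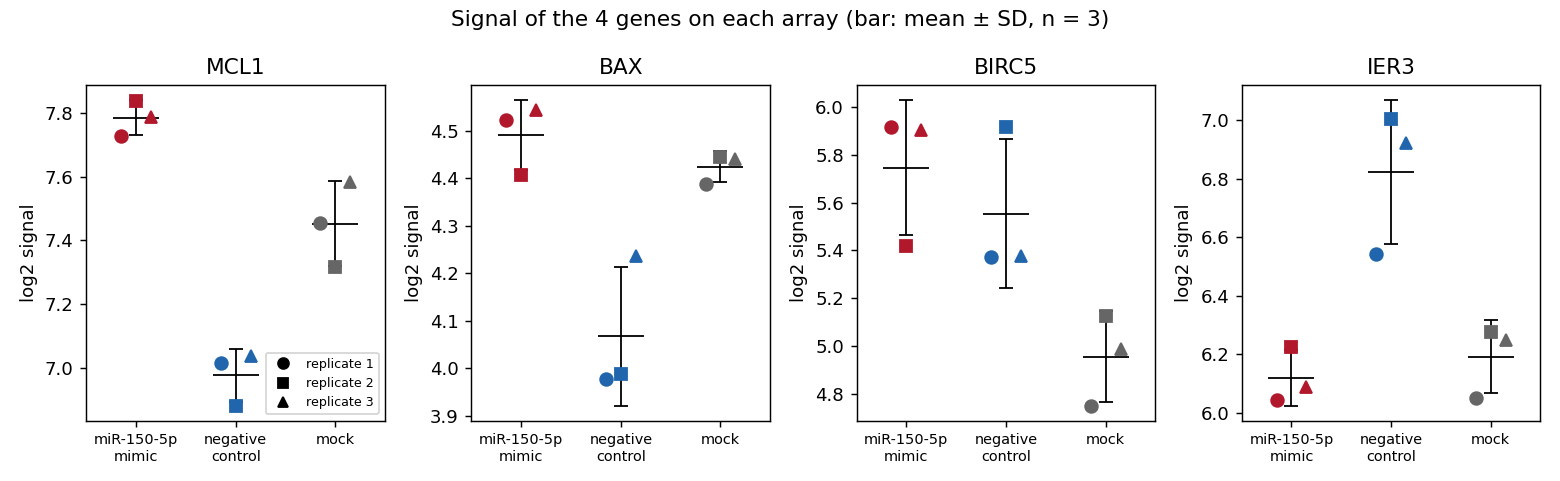
Log2 signal (y axis) of MCL1, BAX, BIRC5 and IER3 on each array, by group (x axis); symbols mark the replicate number and bars the mean ± SD of n = 3 arrays. MCL1 and BAX are lowest and IER3 highest in the negative control, and BIRC5 is lowest in mock.

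Set side by side, the genes fell into 3 patterns. MCL1 and BAX, which act against each other, were both lower in the negative control than in either other group, and IER3 was the mirror image. BIRC5 was the one gene of the 4 with every mimic and every negative control array above all mock arrays. By limma with an adjusted p under 0.05, 3 of the 4 genes (MCL1 and BAX higher, IER3 lower) were among those called in the mimic against the negative control, where 3.18% of all genes were called. In the mimic against mock 1 of 4, BIRC5, was called, with a background of 3.9%, and in the negative control against mock 0 of 4, with a background of 0.645%. With the replicate number as a block, 1 of 4, IER3, was called in the negative control against mock, and 61 genes in all where 96 were called without it. At an unadjusted p under 0.05, all 4 were past the line in the negative control against mock, as were 11% of all genes. Arrays of the 2 groups did not overlap for 3, 2 and 4 of the genes in these comparisons, in the order just given, against 18.6%, 20.2% and 12% of all genes. Since the genes were picked with these contrasts known, nothing is read from the counts. As a description, the call of BAX was lost without each array in turn except negative control 3 (differences of 0.38 to 0.51). That of BIRC5 held only with mimic 2 or negative control 2 as the array left out (0.69 to 0.95). Both calls were also lost after a further quantile normalization, in a fit on the 6 arrays compared and with the replicate number as a block. The call of IER3 was lost without mimic 1, mimic 3 or negative control 3 (-0.84 to -0.61 over all 9), on the 6 arrays, and with the mean of its features, which gave -0.42.

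**Figure D2:**
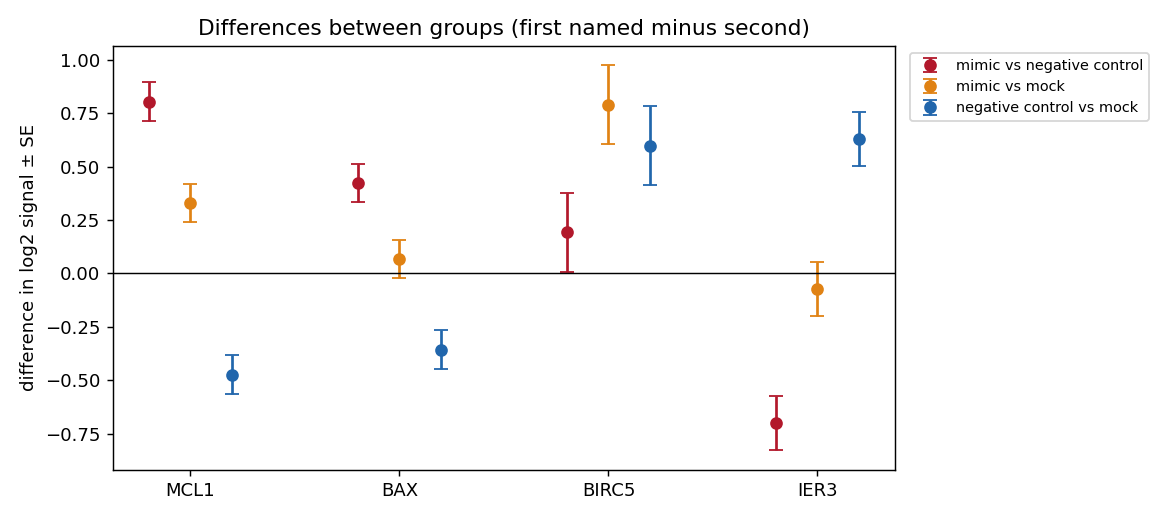
Differences in log2 signal ± SE (y axis) for the 4 genes (x axis) in 3 comparisons, first-named group minus second, n = 3 arrays per group. For the mimic against the negative control MCL1 and BAX lie above 0 and IER3 below, with the reverse for the negative control against mock; for BIRC5 both comparisons with mock lie above 0.

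Because MCL1 and BAX oppose each other, their balance within an array was also computed. MCL1 minus BAX on the log2 scale was 3.21, 3.43 and 3.24 in the mimic, 3.04, 2.89 and 2.80 in the negative control, and 3.07, 2.87 and 3.14 in mock. All mimic arrays were above all others, and the negative control and mock arrays overlapped. The means were 3.29 ± 0.12 in the mimic, 2.91 ± 0.12 in the negative control and 3.03 ± 0.14 in mock (SD, n = 3 each). A shift that moves both genes on an array alike cancels in this quantity, and only its change between groups can be read, since the probes differ. Variation with the small nucleolar RNA signal described below does not cancel, as r within groups was -0.85 for MCL1 and 0.0065 for BAX. Both genes were chosen for their differences in these contrasts, so the balance restates the values above and adds no separate result.

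Of the 11 features of IER3, which lies in the major histocompatibility complex, 1 was used above, and its mean over all arrays was 6.38. The next brightest, at 6.37, consisted of 4 features with identical values on every array, which gave -0.74 for the mimic minus the negative control and 0.56 for the negative control minus mock. A further feature at 5.57 gave -0.78 and 0.57. The other 5, also identical to each other and dim at 4.02, gave -0.03 and -0.01. The 11 features thus held 4 distinct sets of values, of which 3 put the negative control highest and the dimmest showed no such difference.

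Signal of the small nucleolar RNAs varied between arrays of a group, and BIRC5 and MCL1 varied with it. The mean log2 signal of 23 such genes (small nucleolar and Cajal body RNAs) was 6.43, 5.95 and 6.75 on mimic arrays 1 to 3. It was 5.91, 6.83 and 5.87 on the negative control arrays and 5.62, 6.78 and 5.64 on the mock arrays. The groups overlapped, but their averages were highest in the mimic and lowest in mock, the same order as for BIRC5. In each control group BIRC5 was highest on the array with the highest of these means, negative control 2 and mock 2, and in the mimic it was lowest on mimic 2, which had the lowest mean. As a description over 9 arrays, deviations from the group mean had r = 0.85 with the small nucleolar mean for BIRC5 and r = -0.85 for MCL1, with 0.0065 for BAX and 0.36 for IER3. The median over all genes was -0.064, 1.67% of genes had an r at or above that of BIRC5, and 3.04% had one at or below that of MCL1. With that mean as a covariate in limma, an alternative chosen after seeing the data, BIRC5 differed by 0.64 between mimic and mock. It differed by 0.52 between negative control and mock and by 0.12 between mimic and negative control. MCL1 then differed by 0.83 between mimic and negative control and by -0.45 between negative control and mock. Without negative control 2 and mock 2, BIRC5 was higher by 0.88 in the mimic than in mock, and by 0.37 in the mimic than in the negative control. This took the array with the highest small nucleolar mean from each control group and none from the mimic. Every mimic array then had a higher such mean than every control array left, so these differences are not free of that variation.

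**Figure D3:**
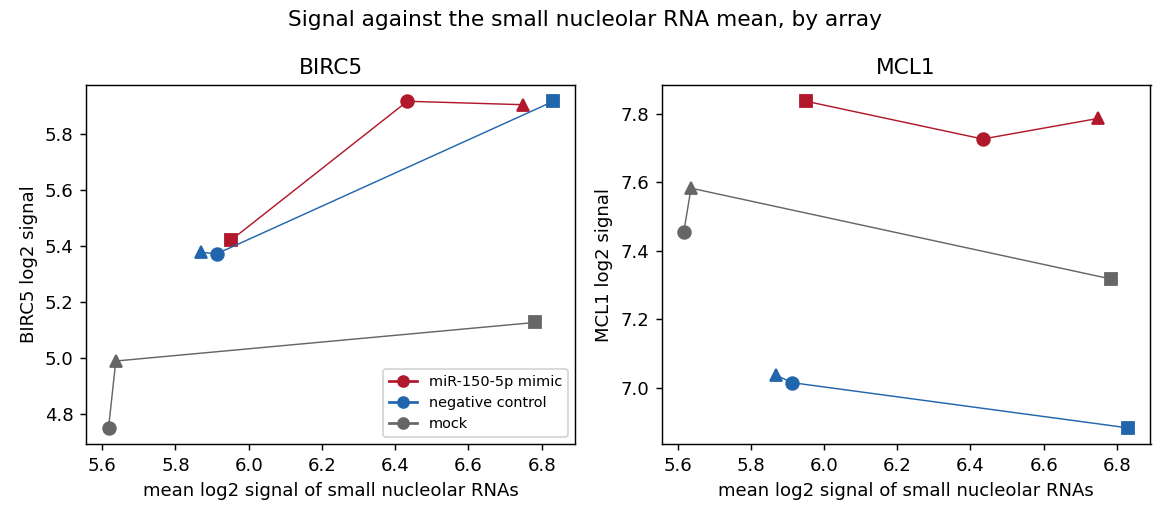
Log2 signal of BIRC5 (left) and MCL1 (right) against the mean log2 signal of 23 small nucleolar and Cajal body RNA genes (x axis), 1 point per array; lines join arrays of a group and symbols mark replicates 1 (circle), 2 (square) and 3 (triangle). Within each control group BIRC5 is highest and MCL1 lowest on replicate 2, which has the highest x value.

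Around the 4 genes, 10 lists of related genes held 85 other symbols, of which 49 were measured. The lists were drawn up with earlier results of these arrays known. None of the 11 listed caspases was analysed here. In the mimic against the negative control, 0 of the 49 rose and 1 fell, while 1.76% of all genes rose and 1.42% fell. Against mock, the mimic had 5 that rose and 0 that fell, beside 2.28% and 1.62% of all genes. The negative control against mock had 1 that rose and 0 that fell, beside 0.168% and 0.477% of all genes. At an unadjusted p under 0.05 there were 11, 17 and 12 of the 49 in these comparisons, beside 16%, 17.5% and 11% of all genes. As the lists were drawn up with earlier results known, nothing is read from these counts. The median difference over the 49 was 0.09, 0.09 and 0.04 in those comparisons, and -0.0044, 0.00035 and 0.0076 over all genes.

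No other member of the BCL-2 family passed in any comparison. Of 15 measured, 0 passed by limma, and 1 in each comparison had an unadjusted p under 0.05. Limma called 3.18% of all genes in the mimic against the negative control and 3.9% in the mimic against mock. It called 0.645% in the negative control against mock. At call shares this low, 0 of 15 does not set MCL1 and BAX apart from their family. The shares of all genes at an unadjusted p under 0.05 were 16%, 17.5% and 11%. BCL2L1 (BCL-xL), the brightest of the 4 other survival genes, was at -0.12 ± 0.17 in the mimic against the negative control, 0.01 ± 0.17 in the mimic against mock and 0.13 ± 0.17 in the negative control against mock. BCL2, the founding member, was near the floor of the array, at 2.55, 2.62 and 2.08 in the mimic, 2.52, 2.34 and 2.58 in the negative control and 2.86, 3.05 and 2.81 in mock. Its mock arrays lay above all others, and limma gave -0.49 ± 0.14 in the mimic against mock (adjusted p = 0.094). BAK1 and BOK, the pore formers beside BAX, did not pass either. BAK1, which works in parallel with BAX, was at -0.11 ± 0.10 in the mimic against the negative control and at 0.10 ± 0.10 in the negative control against mock. BOK read 3.64 on negative control 1 and 4.56 to 4.94 on the other 8 arrays.

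Of 9 BH3-only and related genes measured, 0 passed in any comparison, and the medians were 0.06 in the mimic against the negative control, 0.08 in the mimic against mock and 0.08 in the negative control against mock. With 0.645% to 3.9% of all genes called by limma in these comparisons, a count of 0 in a list this short says little about its genes. BNIP3L and BNIP3, mitochondrial proteins of hypoxia and mitophagy, were the brightest, at -0.15 ± 0.11 and -0.19 ± 0.18 in the mimic against the negative control. PMAIP1 (NOXA), named for its role because it binds MCL1 and promotes its loss, read 4.30, 4.64 and 4.54 in the mimic, 3.60, 4.72 and 3.60 in the negative control and 3.99, 4.47 and 4.07 in mock. Replicate 2 was the highest array of PMAIP1 in each group, and negative control 2 exceeded all mimic arrays. Among genes of MCL1 turnover, 3 of 6 were measured and 0 passed by limma, with 1, 2 and 1 at an unadjusted p under 0.05 in the mimic against the negative control, the mimic against mock and the negative control against mock. GSK3B, a kinase that marks MCL1 for degradation, was at -0.53 ± 0.15 in the mimic against mock (limma adjusted p = 0.083), and BTRC, which recognises the marked protein, was at 0.34 ± 0.12 (adjusted p = 0.18).

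Of 4 other inhibitor of apoptosis genes measured, 0 passed by limma in any comparison. Since limma called 0.645% to 3.9% of all genes, counts of 0 in lists this short, here and below, single out nothing. BIRC6, the largest protein of that family, was at 0.09 ± 0.11 in the mimic against mock, and BIRC2 (cIAP1), a ubiquitin ligase of TNF signalling, was at 0.07 ± 0.098. Whether BIRC5 differed from them was not tested. Of 4 genes of their antagonists and the apoptosome, and of 4 genes of death receptors and adaptors, 0 passed in any comparison. APAF1, the scaffold of the apoptosome, was at 0.29 ± 0.14 in the mimic against mock, and ENDOG, a mitochondrial nuclease, was at -0.02 ± 0.19. TRADD and FADD, adaptors of death receptors, were at 0.08 ± 0.10 and 0.26 ± 0.15 there. Of these 12 genes, 1, 1 and 2 had an unadjusted p under 0.05 in the mimic against the negative control, the mimic against mock and the negative control against mock.

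**Figure D4:**
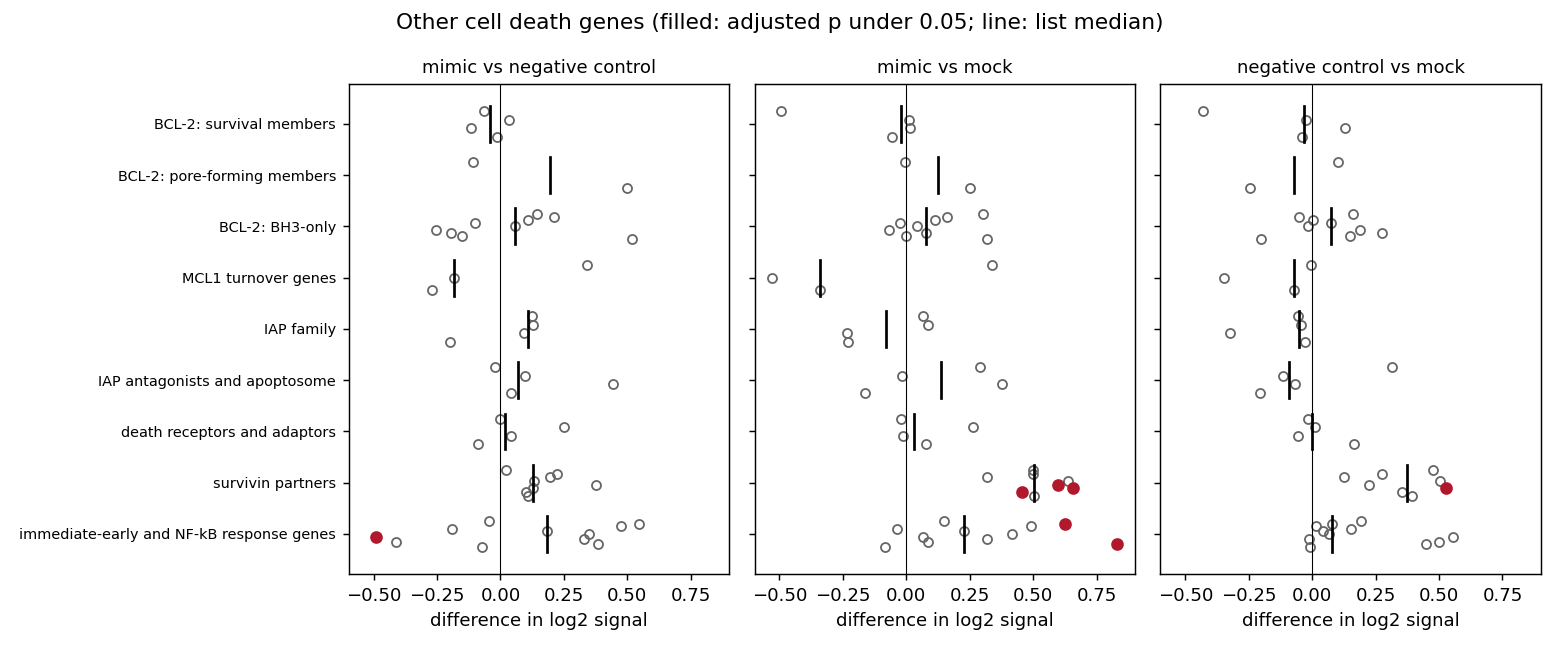
Differences in log2 signal (x axis, first-named group minus second) of the 49 other cell death genes by list (y axis) in 3 comparisons; filled points have a limma adjusted p under 0.05 and vertical lines are list medians. The 8 survivin partners lie above 0 in every panel, with a median of 0.50 in the mimic against mock; for the mimic against the negative control 6 or 7 of 8 did under some alternatives given in the text.

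Some genes that act with survivin in mitosis rose in the mimic against mock. Of 8 measured partners in the chromosomal passenger complex and the spindle checkpoint, 3 rose, 0 fell and 5 did not pass there, with a median of 0.50, where 2.28% of all genes rose. In the negative control against mock, 1 rose and 7 did not pass, with a median of 0.37, where 0.168% of all genes rose. Between the mimic and the negative control 0 passed by limma (1 at an unadjusted p under 0.05), with a median of 0.13, where 3.18% of all genes were called. All 8 differences were above 0 in each comparison, as were 50.1% of all genes in the mimic against mock, 52.1% in the negative control against mock and 48.6% in the mimic against the negative control. For the mimic against the negative control, 6 of 8 were above 0 without mimic 1, and 7 of 8 without negative control 1 or 3, after a further quantile normalization or with the small nucleolar covariate. The arrays of the groups did not overlap for 8 of 8, 6 of 8 and 2 of 8 genes in those comparisons, against 20.2%, 12% and 18.6% of all genes. This list too was drawn up with earlier results known, and the comparisons share arrays, so nothing is read from these counts. INCENP, the scaffold that survivin binds, read 5.64, 5.69 and 5.61 in the mimic, 5.49, 5.55 and 5.52 in the negative control, and 4.91, 4.90 and 5.16 in mock. No 2 of these groups overlapped. In the mimic against mock it rose by 0.66 ± 0.087 (limma, adjusted p = 0.0047), a call that held with any 1 array left out. In the negative control against mock it rose by 0.53 ± 0.087 (adjusted p = 0.030), a call lost without each array except mock 3 (adjusted p up to 0.15). It was also lost with the replicate number as a block (limma, adjusted p = 0.088) and on the 6 arrays compared (adjusted p = 0.14).

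HASPIN, the kinase that marks chromatin for the complex, rose by 0.60 ± 0.13 in the mimic against mock (limma, adjusted p = 0.037). The call held only without negative control 1 or 2 among arrays left out singly (adjusted p up to 0.10). SGO1, shugoshin, which guards centromeric cohesion, rose by 0.45 ± 0.10 (limma, adjusted p = 0.045), and that call held only without negative control 2 (adjusted p up to 0.12). Both calls were lost in limma fits on the 6 arrays compared (adjusted p = 0.054 for HASPIN and 0.089 for SGO1) and after a further quantile normalization (0.082 and 0.11). AURKB, the kinase of the complex, read 7.76, 7.68 and 7.50 in the mimic, 7.49, 8.01 and 7.38 in the negative control and 7.03, 7.16 and 7.26 in mock. CDCA8 (borealin), its remaining subunit, read 7.03, 7.03 and 6.56 in the mimic, 6.55, 7.07 and 6.60 in the negative control and 6.25, 6.35 and 6.11 in mock. Both were highest of their group on negative control 2, as BIRC5 was, and neither passed. Deviations of the 8 partners from their group means had r with the small nucleolar mean from -0.59 for HASPIN to 0.51 for TTK. With that mean as a covariate the medians of the 8 genes were 0.45 in the mimic against mock, 0.35 in the negative control against mock and 0.12 in the mimic against the negative control.

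IER3 belongs to a set of early-response genes that went different ways. Of the 11 others measured, 0 rose, 1 fell and 10 did not pass in the mimic against the negative control, with a median of 0.18. Of all genes, 1.76% rose and 1.42% fell in that comparison, and 7 of the 11 had an unadjusted p under 0.05, as did 16% of all genes. IER5, an immediate-early gene of the heat shock response, fell by 0.49 on the log2 scale there (SE 0.11, limma adjusted p = 0.046). It read 3.96, 3.80 and 3.90 in the mimic, 4.33, 4.49 and 4.31 in the negative control, and 3.59, 3.96 and 3.91 in mock. Its negative control arrays were above all others, and its mimic and mock arrays overlapped. The call was lost without each array except mock 1 (adjusted p up to 0.14) and with arrays centred on their medians (limma, adjusted p = 0.062). JUNB, an AP-1 subunit named after its values were seen, also had its 3 highest arrays in the negative control, at 6.43, 6.57 and 6.76. It read 6.32, 6.005 and 6.20 in the mimic and 5.74, 6.34 and 6.18 in mock, and its difference of -0.41 ± 0.16 in the mimic against the negative control did not pass (adjusted p = 0.24).

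Others of the early-response list were highest in the mimic. KLF6, a zinc finger factor of growth arrest, read 7.49, 7.65 and 7.46 in the mimic, 7.21, 7.16 and 7.08 in the negative control and 6.58, 6.69 and 6.83 in mock. KLF6 did not pass in the mimic against the negative control, at 0.38 ± 0.093 (limma, adjusted p = 0.062). Nor did it pass in the negative control against mock, at 0.45 ± 0.093 (limma, adjusted p = 0.075). In the mimic against mock KLF6 rose by 0.83 ± 0.093 (limma, adjusted p = 0.0022), and the call held with any 1 array left out. CXCL8, interleukin 8, rose by 0.62 ± 0.14 in that comparison (limma, adjusted p = 0.040), a call that held only when mock 1 or negative control 2 was the array left out (adjusted p up to 0.13). It was lost on the 6 arrays as well (limma, adjusted p = 0.079). Its signal was near the floor, at 2.89, 2.57 and 2.51 in the mimic, 1.95, 2.26 and 2.12 in the negative control and 2.26, 1.97 and 1.88 in mock. IER2 and JUN, named after their values were seen, had every mimic array above every array of both other groups, with differences from the negative control of 0.35 ± 0.11 and 0.33 ± 0.11 that did not pass. For JUN the margin was very small, with 7.640 on mimic 2 and 7.634 on mock 3. Mimic arrays did not overlap those of the negative control for 18.6% of all genes, and those of mock for 20.2%. In the mimic against mock, 2 of the 11 rose, 0 fell and 9 did not pass, with a median of 0.23. Of all genes, 2.28% rose and 1.62% fell there. In the negative control against mock 0 of the 11 passed by limma, where 0.645% of all genes were called. An unadjusted p under 0.05 was held by 3 of the 11 there and by 11% of all genes.

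**Figure D5:**
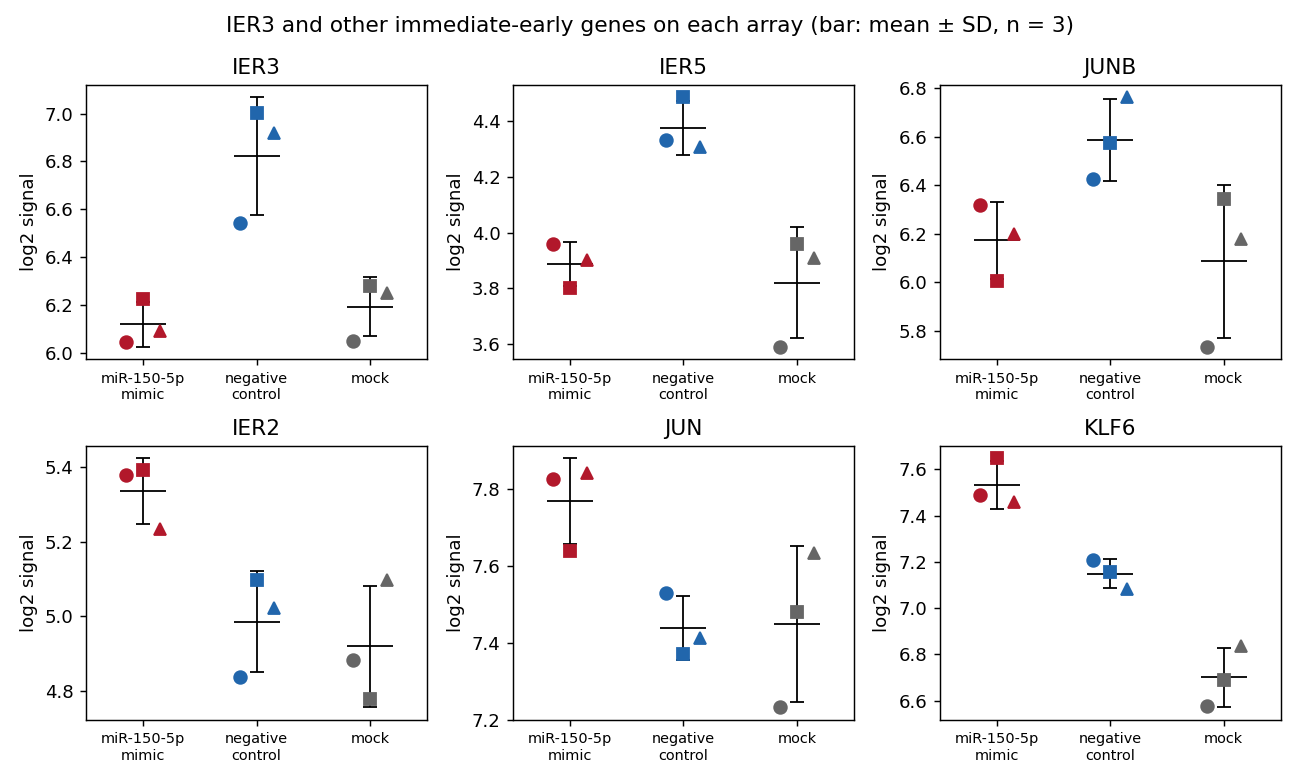
Log2 signal (y axis) of IER3 and 5 other immediate-early genes on each array, by group (x axis); symbols mark replicates 1 (circle), 2 (square) and 3 (triangle), and bars the mean ± SD of n = 3 arrays. IER3, IER5 and JUNB have their 3 highest arrays in the negative control, and IER2, JUN and KLF6 in the mimic.

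Across all genes at or above the median signal, those most like each of the 4 over the 9 arrays were found by Pearson's r, given as a description because the arrays fall into 3 groups. For MCL1 they were SFXN2 (r = 0.98), a mitochondrial carrier, DDX21 (0.97), a nucleolar RNA helicase, TMEM33 (0.97), SMURF2 (0.97), a ubiquitin ligase of TGF-beta signalling, and CRIM1 (0.97). CRIM1 averaged 8.23 in the mimic, 6.70 in the negative control and 7.79 in mock. For BAX they were MSANTD3-TMEFF1 (0.95), RBPJ (0.94), the DNA-binding factor of Notch signalling, COG1 (0.93), of the Golgi, NEK7 (0.93), a kinase of mitosis and the inflammasome, and RFXAP (0.92), which regulates MHC class II. RBPJ averaged 5.04 in the mimic, 4.53 in the negative control and 5.11 in mock.

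For BIRC5 the closest were MCM10 (0.97), a replication initiation factor, RPS27 (0.97), a ribosomal protein, TRAPPC2L (0.97), of vesicle transport, EXTL2 (0.96), of heparan sulfate synthesis, and TMEM161A (0.96). MCM10 averaged 6.03 in the mimic, 5.67 in the negative control and 4.98 in mock. For IER3 they were TMED3 (0.95), of protein export from the endoplasmic reticulum, CHI3L2 (0.95), a chitinase-like secreted protein, HABP4 (0.95), TRAPPC6B (0.93) and ARF1 (0.93), a GTPase of the Golgi. CHI3L2 averaged 3.02 in the mimic, 4.27 in the negative control and 3.41 in mock, with the mimic mean below the 3.34 that the mean of a gene over all arrays had to reach in this search.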

How the data were processed

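Total RNA of 9 BT-549 samples was read on Affymetrix Human Gene 2.0 ST arrays, 1 array per sample. The deposited values are log2 signals that the authors made with RMA, per the submitters' processing notes; the version of RMA is not stated there. The table had 9 columns, 0 missing values and array medians of 2.43 to 2.48. Pearson's r across features was 0.981 to 0.989 within and 0.977 to 0.986 between groups. Features were named by the platform annotation, where 16098 had exactly 1 symbol, and names were updated through RefSeq (GRCh38.p14). Gene coordinates are MCL1 chr1:150574558-150579610, BAX chr19:48954875-48961798, BIRC5 chr17:78214253-78225635 and IER3 chr6:30743199-30744547. With the brightest feature per gene, 14884 genes were fitted with limma 3.58.1 in R 4.3.3 (lmFit, eBayes), 1 mean per group, 6 residual and 9.60 total degrees of freedom. P-values are two-sided and adjusted by Benjamini-Hochberg over all genes of a comparison, and 0.05 was the threshold. The fit was tested on simulated data with independent noise for each gene. Variation that genes share on an array was not simulated, so that test does not cover it. The 4 genes and the lists were chosen with earlier results of these data known. Named list genes are those called (up to 4 a list) or else the brightest 2; exceptions are marked in the text or were named for their role. The search for like genes skipped loci of microRNAs, small nucleolar RNAs and uncharacterised transcripts. Background shares count all genes tested. Alternatives were a further quantile normalization, centring, a filter at the median signal, averaging of a gene's features, a fit on 6 arrays, a block for the replicate number, array weights and leaving out each array. Same-numbered negative control and mock arrays had deviations from group means that correlated at 0.15 to 0.23, so blocked values stand beside that comparison where they change a call; the labels state no pairing. The number of arrays limits the precision. 1 list of related genes is not reported here.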

Additional observations from a re-analysis of the deposited data

How the results depend on the processing

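Of 216 recomputed values of the 12 differences of MCL1, BAX, BIRC5 and IER3, 214 moved by less than the spread between replicates and 0 of the called ones changed sign. The 2 that moved by more were those of IER3 with the mean of its 11 features, 5 of them dim, at -0.42 in the mimic against the negative control and 0.31 in the negative control against mock. Many of the 214 could not move, so that count does not measure robustness. The differences cannot change under the median-signal filter, the replicate block or a fit on the compared arrays alone. Nor can they change without an array of the group not compared. Averaging features cannot change MCL1, BAX or BIRC5, with 1 feature each. Leaving out an array of a compared group shifts that group's mean by less than its own spread. With 1 array left out at a time, the mimic against the negative control gave 0.76 to 0.83 for MCL1, 0.38 to 0.51 for BAX, 0.10 to 0.37 for BIRC5 and -0.84 to -0.61 for IER3. The mimic against mock gave 0.26 to 0.40 for MCL1, 0.04 to 0.11 for BAX, 0.69 to 0.95 for BIRC5 and -0.14 to -0.03 for IER3. Negative control against mock gave -0.54 to -0.41 for MCL1, -0.44 to -0.31 for BAX, 0.42 to 0.69 for BIRC5 and 0.54 to 0.77 for IER3.

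Counts of calls varied between settings, and the causes were not tested. In the mimic against the negative control, 473 genes were called, 251 in a fit on the 6 arrays compared, 292 with the replicate block and 199 to 431 with 1 array left out. Of the 4 genes 3 were called there, 1 on the 6 arrays or without mock 2 and negative control 2, and 1 to 2 with 1 array left out. Of the 49 other cell death genes 1 was called, 0 with arrays centred or with the replicate block, and 0 to 1 with 1 array left out.

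In the mimic against mock, 580 genes were called, 321 on the 6 arrays, 346 with the replicate block, 904 with array weights and 188 to 650 with 1 array left out. Of the 4 genes 1 was called, 0 after a further quantile normalization, on the 6 arrays or with the block, 2 with the small nucleolar covariate, and 0 to 1 with 1 array left out. Of the 49 others 5 were called, 3 after that normalization or with the block, 2 on the 6 arrays or without mock 2 and negative control 2, 8 with weights, and 2 to 7 with 1 array left out.

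In the negative control against mock, 96 genes were called, 150 when genes under the median signal were left out, 18 on the 6 arrays, 61 with the replicate block, 153 with the covariate, 28 without mock 2 and negative control 2, and 21 to 112 with 1 array left out. Of the 4 genes 0 were called, 1 with the further normalization, the block or the covariate, 2 above the median signal, and 0 to 1 with 1 array left out. Of the 49 others 1 was called, 2 with the normalization, above the median signal or with the covariate, 0 on the 6 arrays, with the block or without mock 2 and negative control 2, and 0 to 1 with 1 array left out. With the further quantile normalization 37.8% of calls were higher in the mimic against the negative control (55.4% without it), 44.6% in the mimic against mock (58.4%) and 41.2% in the negative control against mock (26%). With the replicate block, the limma calls of HASPIN (adjusted p = 0.071), SGO1 (0.080) and CXCL8 (0.064) in the mimic against mock and of IER5 (0.088) in the mimic against the negative control were lost. So were those of BIRC5 in the mimic against mock and of BAX in the mimic against the negative control. Same-numbered arrays of the mimic and either control had deviations from group means that correlated at -0.29 to -0.054, so there the block rests on a shared number alone. With the small nucleolar covariate the calls of SGO1 (limma, adjusted p = 0.059) and CXCL8 (0.055) were lost.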
